A study of Mus musculus with 18 samples.

Results

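Bone marrow (BM)-derived macrophages of 3 *Slc7a7* knockout mice and 3 wild type mice were compared in their response to acetylated LDL (Ac-LDL). The response of a mouse is the change from its own control culture to its own Ac-LDL culture, paired by the animal named in the sample labels, and the quantity followed throughout is the interaction, that is the knockout response minus the wild type response. It was estimated for all genes that passed a filter on low counts, 12290 of the 31053 genes listed, from 12 of the 18 libraries of the experiment. The other 6 libraries, in which the same mice received oxidized LDL (Ox-LDL), contributed to the estimate of the spread.

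All mice had the C57Bl/6J background and were 12 weeks old. The knockout mice carried a deletion of *Slc7a7* driven by LysM-Cre, a recombinase expressed from the *Lyz2* promoter in myeloid cells, (Slc7a7-/- in the labels), and the wild type mice were their controls (Slc7a7+/+). The sources used here do not give the deleted exons, the sex of the mice, or whether the wild type mice carried Cre. BM cells were grown for 7 days with macrophage colony-stimulating factor or L-cell conditioned medium, 100000 cells were seeded, and vehicle (PBS, the control), 50 μg/mL of Ac-LDL or 100 μg/mL of Ox-LDL was given for 24 h. Ac-LDL is a chemically modified lipoprotein that macrophages take up through scavenger receptors.

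Cells sense their sterol content by a pair of transcription factor systems. When sterol in the endoplasmic reticulum is low, SREBP2 (encoded by *Srebf2*) is escorted by SCAP to the Golgi, cut by proteases and turns on the enzymes of cholesterol synthesis, while INSIG proteins hold it back when sterol is plentiful. Oxysterols formed from excess cholesterol activate LXR, which turns on the exporters ABCA1 and ABCG1. SLC7A7 is the light chain of an exchanger of cationic and neutral amino acids (system y+L) at the plasma membrane.

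Total counts of the 12 libraries ranged from 1043492 to 1768816 (median 1466145), so that a gene with 0 counts could still have had up to 3, which is 1.67 to 2.85 CPM (counts relative to library size). This limit covers counting error only. All 11 macrophage identity markers were detected, with a summed level of 25527 to 36668 CPM in wild type and 15889 to 22018 CPM in knockout libraries. Most of this sum came from *Lyz2*, with 310337 counts over the 12 libraries against 42216 for *Csf1r*, the next marker. The sum thus mostly follows *Lyz2*, whose promoter drives the Cre, and does not compare macrophage identity between the genotypes. The summed level of 6 sex-linked genes lay between 2787 and 3809 CPM in wild type replicate 2 and knockout replicate 1 and between 193 and 265 CPM in the other mice, alike in the control and Ac-LDL libraries of a mouse. The library numbers in the labels place the wild type libraries first, so that this order and genotype cannot be told apart for levels, while the change within a mouse compares libraries of 1 genotype.

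The targeted gene had higher levels with Ac-LDL in wild type cells and lower or equal levels in knockout cells. *Slc7a7* (ENSMUSG00000000958, chromosome 14 of GRCm38, 54369442 to 54417780, minus strand) was at 11.1, 12.6 and 21.1 CPM in wild type control libraries (replicates 1 to 3 throughout) and at 28.5, 23.6 and 23.8 CPM with Ac-LDL. In knockout cells it was at 10.2, 4.33 and 5.16 CPM in control and at 2.36, 2.22 and 5.22 CPM with Ac-LDL. The wild type level was thus higher with Ac-LDL in 3 of 3 mice, whereas in knockout cells it was lower in 2 mice and about equal in the other, and the changes of the genotypes did not overlap. The interaction was −1.67 on the log2 scale (standard error (SE) 0.53, adjusted p = 1.0 and unadjusted p = 0.00339, edgeR's quasi-likelihood test). It ranged from −2.32 without knockout replicate 3 to −1.08 without knockout replicate 1, the latter with an unadjusted p of 0.0889. A two-sided exact permutation test of the 6 changes gave p = 0.10, the smallest that 3 against 3 allow. The knockout control and Ac-LDL libraries still held 3 to 17 counts of the gene each. *Oxa1l* overlaps *Slc7a7* on the other strand, and the strand setting of the counting is not given in the sources used here.

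Across all genes, few interactions passed the threshold. Of 12290 genes, 5 (0.0407%) had an adjusted p under 0.05 in edgeR's quasi-likelihood test, 3 of them higher in the knockout response, among them *Gm32687* and *Gstp1*, and 2 lower (*Hist1h2ah* and *Ngp*). At an unadjusted p under 0.05 there were 243 higher (1.98%) and 231 lower (1.88%). The 3 knockout changes lay entirely above the 3 wild type changes for 619 genes (5.04%) and entirely below for 621 (5.05%). The median interaction over all genes was −0.01. The response itself was called far more often, with 719 genes (5.85%) in the average over both genotypes, 289 higher and 430 lower, 265 genes (2.16%) in wild type and 307 (2.50%) in knockout cells. Called in both genotypes were 38 genes higher and 115 lower, with 0 in opposite directions.

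The regulators of sterol synthesis *Srebf2* and *Insig1* fell with Ac-LDL in both genotypes, with changes nearer to 0 in every knockout mouse than in any wild type mouse, and the difference did not pass the adjusted threshold. *Srebf2* (ENSMUSG00000022463, chromosome 15, 82147181 to 82205379, plus strand), which encodes SREBP2, went from 202, 227 and 222 CPM to 54.1, 63.5 and 66.6 CPM in wild type cells. In knockout cells it went from 231, 210 and 237 CPM to 118, 96.1 and 82.3 CPM, and the changes did not overlap. Its interaction was 0.61 (SE 0.18, unadjusted p = 0.00136, adjusted p = 0.767, edgeR's quasi-likelihood test). *Insig1*, whose product retains SREBP in the endoplasmic reticulum, fell to 25.6, 34.0 and 42.8 CPM in wild type and to 46.5, 34.4 and 47.0 CPM in knockout cells, from 126, 126 and 133 CPM and from 128, 84.8 and 116 CPM. Here the Ac-LDL levels overlapped while the changes within the mice did not, and the interaction was 0.54 (SE 0.22, unadjusted p = 0.0187). The interaction of *Insig1* was 0.41 without wild type replicate 1 (unadjusted p = 0.0792, edgeR's quasi-likelihood test). Its unadjusted p was 0.0623 in the same test without the mouse as a block and 0.0816 with DESeq2. Among the 12 tested genes of the list of SREBP regulators and cholesterol transport, 9 had an interaction above 0, 3 passed an unadjusted p of 0.05 upward (1.98% of all genes) and 0 downward, and 5 did not overlap upward against 5.04% of all genes. *Scap* (0.39), *Mbtps2* (0.38) and *Mbtps1* (0.30), which encode the escort and the proteases of SREBP, had values above 0 that did not pass. Genes of cholesterol transport and storage on the same list did not pass, with *Npc1* at 0.02, *Lipa* at −0.02, *Npc2* at −0.15 and *Soat1* at −0.17. Of the 13 members, 1 was under the count filter.

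**Figure D1:**
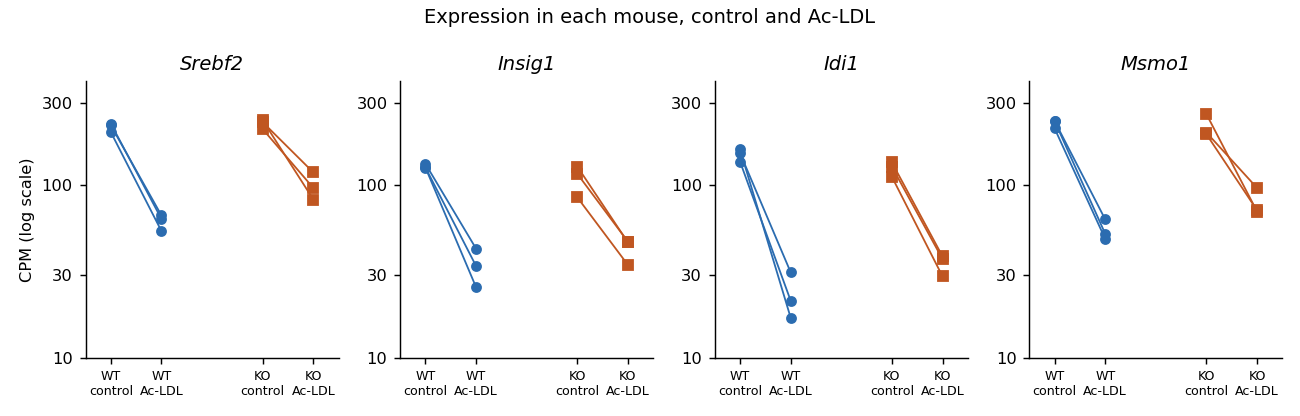
CPM (log axis) of *Srebf2*, *Insig1*, *Idi1* and *Msmo1* in each of 3 wild type (WT, circles) and 3 knockout (KO, squares) mice; each line joins the control and Ac-LDL cultures of 1 mouse. Control levels of *Srebf2* lie between 202 and 237 CPM in both genotypes, while its Ac-LDL levels lie at 54.1 to 66.6 CPM in WT and 82.3 to 118 CPM in KO.

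Of the 20 sterol synthesis enzymes, all were tested, 19 had an interaction above 0, against 6054 of the 12290 genes, and 8 passed an unadjusted p of 0.05 upward and 0 downward, against 1.98% and 1.88% of all genes. The median change of the list was −1.88 in wild type and −1.45 in knockout cells, and the median interaction was 0.52. Within the mice the median change of the 20 enzymes was −2.02, −2.06 and −1.69 in wild type and −1.56, −1.12 and −1.35 in knockout replicates 1 to 3, without overlap. For 7 enzymes the changes lay entirely above those of the wild type mice, and for 0 entirely below, against 5.04% and 5.05% of all genes. The median interaction was 0.31 without knockout replicate 2 and 0.74 without knockout replicate 1.

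Among the early, isoprenoid steps of the pathway, the smallest p belonged to *Idi1*, the isomerase of isopentenyl diphosphate (ENSMUSG00000058258, chromosome 13, 8885501 to 8892451, plus strand). It was at 161, 137 and 153 CPM in wild type control libraries and at 17.1, 21.4 and 31.3 CPM with Ac-LDL. In knockout cells it was at 135, 128 and 112 CPM in control and at 38.6, 37.2 and 29.6 CPM with Ac-LDL. Although 1 wild type library with Ac-LDL lay among the knockout ones, the changes within the mice did not overlap, and the interaction was 0.82 (SE 0.24, unadjusted p = 0.00144, adjusted p = 0.767, edgeR's quasi-likelihood test). Of its 31-base words, 18.8% occur in transcripts of other genes. *Mvd*, the mevalonate diphosphate decarboxylase, had an interaction of 1.34 (SE 0.57) at Ac-LDL levels of 1.90 to 5.44 CPM in wild type and 4.44 to 9.46 CPM in knockout libraries, near the limit of this depth. *Hmgcs1*, the synthase that forms HMG-CoA, did not pass, with log2 changes of −2.0 in wild type and −1.90 in knockout cells and an interaction of 0.11 (95% confidence interval −0.34 to 0.55).

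In the later, sterol-forming steps, *Sqle* (squalene epoxidase), *Cyp51* (lanosterol demethylase), *Msmo1* (sterol C4-methyl oxidase) and *Tm7sf2* (sterol C14-reductase) passed an unadjusted p of 0.05. Their interactions were 0.57 (SE 0.26), 0.61 (SE 0.24), 0.60 (SE 0.20) and 1.0 (SE 0.47). Without knockout replicate 2, *Sqle* had 0.26 (unadjusted p = 0.367) and *Msmo1* 0.39 (unadjusted p = 0.0798), and *Sqle* had an unadjusted p of 0.077 without wild type replicate 1. *Msmo1* was at 235, 213 and 235 CPM in wild type control cells and at 52.2, 48.8 and 63.2 CPM with Ac-LDL, and at 257, 201 and 197 CPM and 70.1, 96.1 and 71.3 CPM in knockout cells. Every knockout library with Ac-LDL lay above the wild type ones. *Tm7sf2* overlaps *Vps51* on the same strand, and *Cyp51* overlaps *Akap9* on the other. *Fdft1* (0.13), *Lss* (0.07), *Dhcr7* (0.11) and *Sc5d* (−0.05), enzymes of the same stretch of the pathway, had differences smaller than their SE. The sterol transfer protein gene *Stard4* fell by 1.48 in wild type and by 1.47 in knockout cells on the log2 scale.

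**Figure D2:**
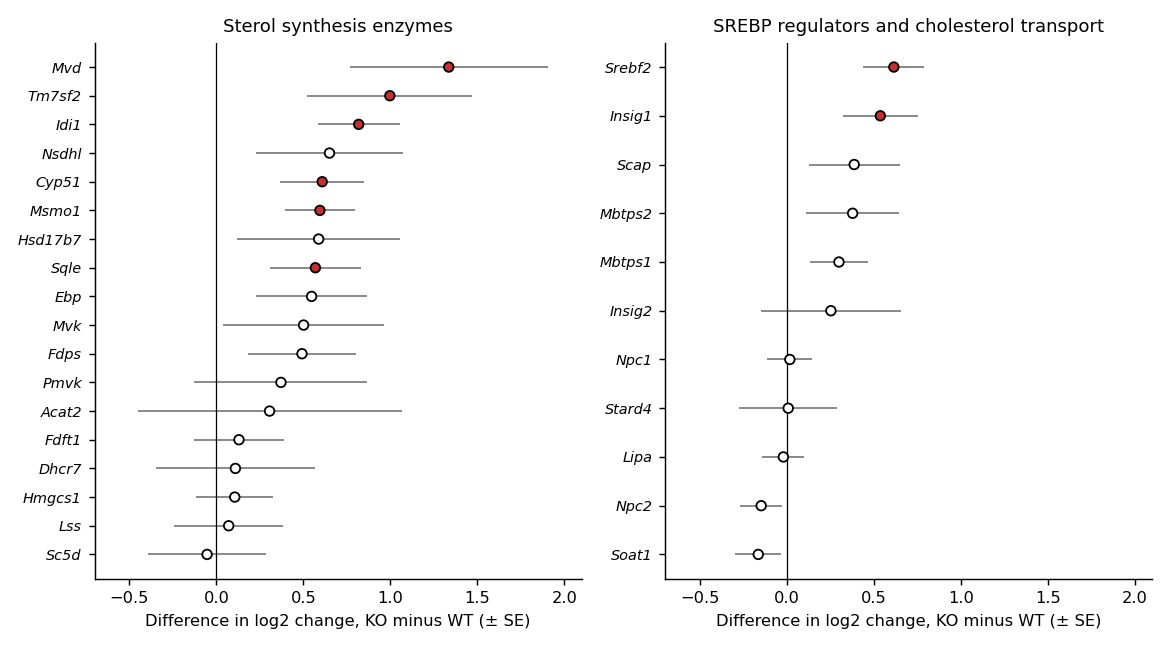
Interaction (knockout minus wild type change with Ac-LDL, log2) of 18 sterol synthesis enzymes and of 11 genes of SREBP regulation and cholesterol transport; bars are the SE of edgeR's fit, and filled points have an unadjusted p under 0.05. All but 1 of the enzymes lie above 0, with *Mvd* at 1.34 the highest and *Sc5d* at −0.05 the lowest.

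Promoters of *Idi1* and *Hmgcs1* are shown because these enzymes both fell strongly while the first differed between the genotypes at an unadjusted p under 0.05 and the second did not. The sequences are RefSeq windows of GRCm38.p6 from 250 bases before to 50 bases after the annotated start, on the plus strand, at chr13:8885356-8885655 and chr13:119690101-119690400. Capitals mark the sterol regulatory element letters TCACNCCAC and the CCAAT box letters CCAAT, searched on both strands, which do not overlap each other here.
Idi1: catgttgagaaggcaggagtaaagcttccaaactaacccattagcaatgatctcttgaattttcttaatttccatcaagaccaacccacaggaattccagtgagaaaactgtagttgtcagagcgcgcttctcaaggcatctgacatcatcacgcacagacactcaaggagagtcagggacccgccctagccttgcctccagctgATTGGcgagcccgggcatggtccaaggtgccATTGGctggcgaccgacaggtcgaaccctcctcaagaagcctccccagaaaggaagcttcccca
Hmgcs1: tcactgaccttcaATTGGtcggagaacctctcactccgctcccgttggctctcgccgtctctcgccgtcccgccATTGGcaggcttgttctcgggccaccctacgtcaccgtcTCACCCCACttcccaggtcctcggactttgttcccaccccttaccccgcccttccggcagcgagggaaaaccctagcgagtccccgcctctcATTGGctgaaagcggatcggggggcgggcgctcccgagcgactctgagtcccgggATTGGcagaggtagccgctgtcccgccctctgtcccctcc
The window of *Hmgcs1* holds 1 sterol regulatory element and 4 CCAAT boxes, and that of *Idi1* holds 0 and 2. Of all 32851 promoters of the table, 1.24% hold the first motif and 37.4% the second. Of the 33 genes of the sterol synthesis and SREBP regulator lists, 24 had an entry, with 30 promoters. Of these genes, 1 (*Hmgcs1*) held the first motif and 20 the second in any of their promoters. These counts are per gene and the shares above are per promoter, so they are not directly comparable. Variants of the letters were not searched, so a window without a match can still hold such an element. A match of letters is a description only.

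Whether the smaller fall was general to genes that fell with Ac-LDL was examined in the 719 genes called in the average response, a contrast that in this balanced design is estimated apart from the interaction. Of the 23 sterol synthesis and SREBP regulator genes among them, 22 changed less in knockout cells, 11 of them at an unadjusted p under 0.05. Of the other 407 genes that fell, 205 (50.4%) changed less in knockout cells, 15 at an unadjusted p under 0.05 and 7 the other way. Among those of them with an average fall of at least 1 log2 unit, it was 25 of 57. Of the 23 genes that rose by at least 1 log2 unit, 14 changed less. The difference between these sets of genes was not tested, since genes are not replicates.

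**Figure D3:**
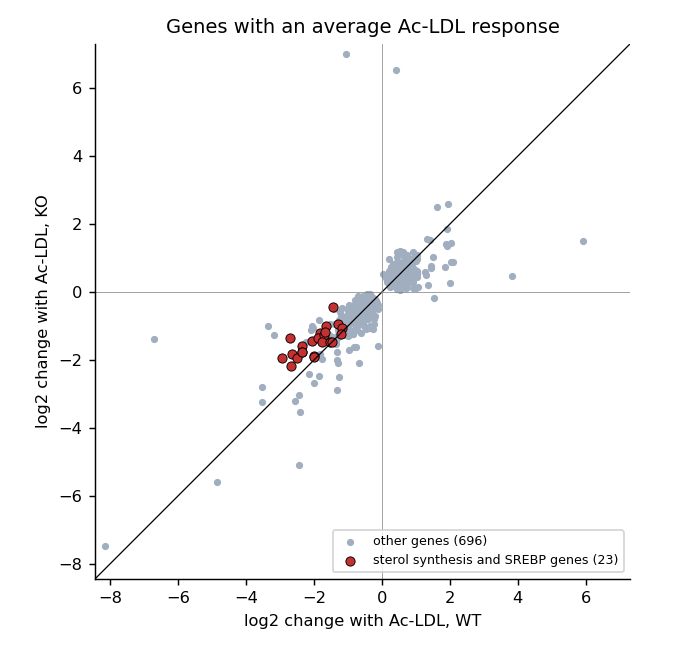
Fitted log2 change with Ac-LDL in wild type (x axis) and knockout (y axis) cells of the 719 genes with an average response; the line marks equal change, and red points are the 23 sterol synthesis and SREBP genes. Of these, 22 lie nearer to 0 in knockout cells; points far from the line at the edges include genes with a group at 0 counts, whose fitted change is not a measure of size.

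The main cholesterol exporter genes rose in both genotypes, with lower values of the response in knockout cells that depended on single mice. *Abca1* rose from 60.3, 154 and 155 CPM to 488, 514 and 511 CPM in wild type and from 79.0, 169 and 180 CPM to 378, 305 and 469 CPM in knockout cells. In both genotypes the control library of replicate 1 was the lowest, and the changes overlapped. Its interaction was −0.59 (SE 0.24, unadjusted p = 0.0198), but −0.28 without wild type replicate 1 (unadjusted p = 0.177) or knockout replicate 2 (unadjusted p = 0.269), and −0.90 without knockout replicate 1. *Abcg1* rose from 46.4, 97.0 and 61.2 CPM to 256, 306 and 226 CPM in wild type and from 63.9, 107 and 98.0 CPM to 226, 190 and 278 CPM in knockout cells, with an interaction of −0.56 (SE 0.21, unadjusted p = 0.0100). It was −0.26 without knockout replicate 2 (unadjusted p = 0.209) and −0.38 without wild type replicate 1 (unadjusted p = 0.0643). Neither passed after adjustment (adjusted p = 1.0, edgeR's quasi-likelihood test). Of the 11 tested LXR target and efflux genes, 2 passed downward at an unadjusted p of 0.05 and 0 upward, against 1.88% and 1.98% of all genes. The list had a median of −0.14 that was −0.03 without wild type replicate 1 and −0.02 without knockout replicate 2. The LXR targets *Arl4c* (0.15), *Mylip* (−0.06), *Smpdl3a* (0.02) and *Srebf1* (−0.07) had interactions within 1 SE of 0.

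Of the genes of fatty acid synthesis and desaturation, 1 of 13 tested passed an unadjusted p of 0.05 upward and 0 downward, against 1.98% and 1.88% of all genes. *Fads2*, the delta-6 desaturase, was at 23.2, 21.6 and 14.6 CPM in wild type control cells and 1.90, 1.48 and 2.72 CPM with Ac-LDL, and at 22.3, 18.6 and 7.09 CPM and 7.88, 6.11 and 5.22 CPM in knockout cells. Every knockout library with Ac-LDL lay above the wild type ones, and the interaction was 1.93 (SE 0.68, unadjusted p = 0.00795). The wild type libraries with Ac-LDL held only 2, 2 and 4 counts and the knockout ones 10, 11 and 9. The former are near the limit of this depth, so the size of the difference is not resolved. *Scd1*, the stearoyl-CoA desaturase, had an interaction of 2.22 (SE 1.14) at 0 to 4.89 CPM, too low to be resolved at this depth. *Fasn* (0.03), *Acaca* (−0.01) and *Scd2* (−0.01), enzymes of fatty acid synthesis and desaturation, had values within 1 SE of 0, and the list had a median of 0.04, between −0.03 and 0.20 over the alternatives. *Lpl*, the lipoprotein lipase, had log2 changes of 0.50, 0.30 and 0.55 in wild type and of 0.06, 0.11 and 0.10 in knockout mice, with an interaction of −0.36 (SE 0.12, unadjusted p = 0.00481). It was the member of the 12 markers of lipid-associated macrophages (LAM) that passed, against 1.88% of all genes downward. All 12 of the 12 markers had values below 0, against 6236 of the 12290 genes, with a median of −0.13. Of these markers, 5 did not overlap downward, against 5.05% of all genes. *Lpl* was also the only member of 16 tested PPAR target and lipid droplet genes that passed, against the same 1.88% of all genes. That list had a median of −0.19, or −0.04 without wild type replicate 1. The scavenger receptor gene *Cd36* rose in both genotypes, with an interaction of −0.12 (SE 0.14), *Scarb1* had 0.34 (SE 0.18), and *Hpgd*, a prostaglandin dehydrogenase that rose in both, had 0.07 (SE 0.21).

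With Ox-LDL, the differences between the genotypes were nearer to 0 for some of the sterol genes and farther for others. The interaction with Ox-LDL was 0.13 (SE 0.18) for *Srebf2* and −0.21 (SE 0.29) for *Idi1*, and the median interaction of the 20 enzymes was 0.07. At an unadjusted p under 0.05, 2 of the 20 enzymes differed with Ox-LDL, against 496 of all 12290 genes (4.04%). These were *Fdft1* at −0.86 (SE 0.28) and *Sc5d* at −0.78 (SE 0.36), both below 0. The doses of the 2 lipoproteins differed and both interactions share the control libraries. Set directly against each other without these libraries, the genotype difference with Ac-LDL exceeded that with Ox-LDL by 1.02 for *Idi1* (SE 0.33, unadjusted p = 0.00392, adjusted p = 1.0, edgeR's quasi-likelihood test). At an unadjusted p under 0.05 this contrast was higher for 4 of the 20 enzymes, among them *Idi1*, *Fdft1* and *Ebp*, and 4 of the 12 regulators, among them *Insig1*, *Srebf2* and *Mbtps1*, against 249 of all genes (2.03%).

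Several genes of neutrophil granules had lower values of the response in knockout cells. *Ngp*, the neutrophilic granule protein gene (ENSMUSG00000032484, chromosome 9, 110419747 to 110423012, plus strand), was at 29.7, 23.0 and 22.6 CPM in wild type control cells and at 61.7, 53.2 and 17 CPM with Ac-LDL. In knockout cells it was at 24.1, 11.8 and 48.3 CPM in control and at 11.8, 7.77 and 9.86 CPM with Ac-LDL. Levels were higher with Ac-LDL in 2 of 3 wild type mice and lower in 3 of 3 knockout mice, and the changes did not overlap. The interaction was −2.23 (SE 0.45, 95% confidence interval −3.14 to −1.32, adjusted p = 0.0436, edgeR's quasi-likelihood test). The adjusted p was 0.842, with an interaction of −1.61, without knockout replicate 3, 0.073 and 0.152 without wild type replicates 1 and 2, 0.250 with limma, 0.480 with DESeq2, 0.110 with the stricter filter, 0.0559 without TMM scaling and 1.0 without the mouse as a block.

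*S100a9* and *S100a8* encode the subunits of calprotectin. *S100a9* had log2 changes of 0.75, 0.80 and 1.0 in wild type and of −0.04, −1.07 and −0.73 in knockout mice, opposite in sign and without overlap (interaction −1.43, SE 0.35, unadjusted p = 0.000241, adjusted p = 0.254, edgeR's quasi-likelihood test). *S100a8* had an interaction of −1.69 (SE 0.49), *Ltf* (lactoferrin) of −1.22 (SE 0.45) and *Chil3* (the chitinase-like protein Ym1) of −1.19 (SE 0.44). In all, 12 of the 17 markers were tested, 5 passed an unadjusted p of 0.05 downward, against 1.88% of all genes, and 0 upward, and the median was −1.20, or −0.97 with genes that had a group at 0 set at their bound. For 4 of the 12 the knockout changes lay entirely below the wild type ones and for 1 entirely above, against 5.05% and 5.04% of all genes. Values above 0 were found for 3 of the 12, among them *Mpo* (2.68, SE 1.37) and *Mmp8* (0.65, SE 0.37). The summed level of the list was 120 to 181 CPM in wild type control cells and 122 to 277 CPM with Ac-LDL, and 81.1 to 184 CPM and 48.3 to 124 CPM in knockout cells. The sum changed by 0.61, 0.49 and 0.03 in log2 in the wild type and by −0.07, −0.74 and −1.09 in the knockout mice. *Ly6g* and *Retnlg*, defining genes of mature neutrophils, had 0 counts in all 12 libraries, and *Elane* had 6 in total. In bulk samples, fewer cells of a type and less RNA per cell cannot be told apart.

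**Figure D4:**
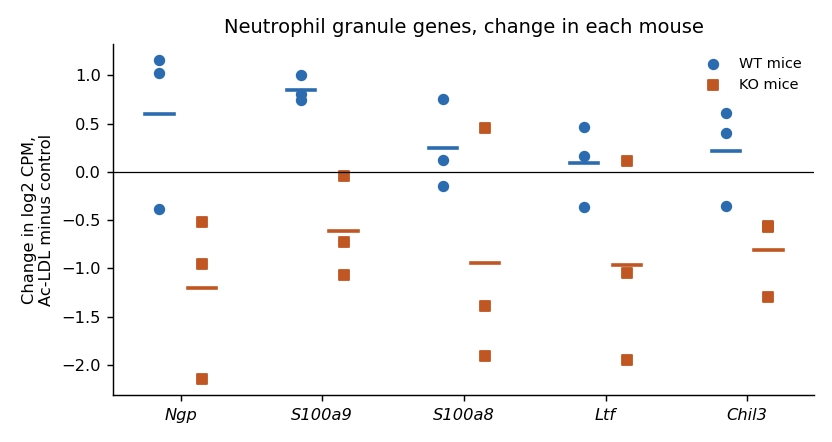
Change in log2 CPM from control to Ac-LDL of 5 neutrophil granule genes in each wild type (circles) and knockout (squares) mouse, with horizontal bars at the mean of 3. The 5 genes were chosen from the 12 tested markers for an unadjusted p under 0.05 downward (edgeR's quasi-likelihood test). Of the 12, 3 had an interaction above 0 and are not shown. The changes of *S100a9* lie between 0.75 and 1.0 in wild type and between −1.07 and −0.04 in knockout mice, while those of *S100a8* overlap.

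Of 21 tested interferon-stimulated genes, 3 passed an unadjusted p of 0.05 downward, against 1.88% of all genes, and 0 upward. The median was −0.15, with −0.48 without knockout replicate 2 and 0.03 without knockout replicate 3. *Ifit3* changed from 7.43, 35.6 and 21.1 CPM to 0, 42.1 and 20.4 CPM in wild type and from 18.7, 30.3 and 56.1 CPM to 8.67, 13.9 and 11.6 CPM in knockout cells. It fell in 3 of 3 knockout mice, and the lowest change, of wild type replicate 1, overlapped with them (interaction −1.48, SE 0.45, unadjusted p = 0.00251). With limma on the per-mouse changes it was −0.57 (unadjusted p = 0.356), and with DESeq2 the unadjusted p was 0.105. Together with its copy *Ifit3b*, which holds 61.8% of its words, it had an interaction of −1.39. *Ifit2* had −0.71 (SE 0.32), or −0.46 without wild type replicate 3 and −0.42 without knockout replicate 3, and *Stat2*, a transcription factor of the interferon response, −0.64 (SE 0.25) without overlap. For *Stat2* the unadjusted p was 0.121 without wild type replicate 2 and 0.0686 without knockout replicate 3 (edgeR's quasi-likelihood test). It was 0.134 in that test without the mouse as a block and 0.116 with DESeq2. *Mx1* (0.02), *Usp18* (0.05) and *Rtp4* (0.01), other genes of the list, had values within 1 SE of 0.

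Several single genes stood out by their p without passing the adjusted threshold. *Aldoc*, the aldolase C of glycolysis, fell from 83.6, 55.8 and 89.7 CPM to 28.5, 14.8 and 21.1 CPM in wild type and from 77.8, 48.3 and 48.3 CPM to 41.8, 28.9 and 27.3 CPM in knockout cells. The fall was smaller in each knockout mouse than in any wild type mouse (interaction 1.03, SE 0.25, adjusted p = 0.254, edgeR's quasi-likelihood test). *Acads*, a mitochondrial dehydrogenase of short-chain acyl-CoA, was at 30.6, 33.5 and 37.2 CPM in control and 63.6, 42.1 and 51.7 CPM with Ac-LDL in wild type mice. In the knockout mice it was at 53.7, 45.8 and 48.3 CPM and at 29.9, 33.9 and 36.0 CPM (interaction −1.15, SE 0.25, adjusted p = 0.142, edgeR's quasi-likelihood test). Control and Ac-LDL libraries thus exchanged their order between the genotypes. *Sec24a*, a coat protein of vesicles leaving the endoplasmic reticulum, had values in the other direction, from 52.9, 54.4 and 54.7 CPM to 36.1, 36.2 and 48.3 CPM in wild type and from 34.4, 31.6 and 40.6 CPM to 42.6, 46.6 and 49.3 CPM in knockout cells (interaction 0.80, SE 0.23). *Fgfr1*, a receptor of fibroblast growth factors, had an interaction of −1.16 (SE 0.28), *Serac1* of 1.78 (SE 0.53), *Tuba1c*, an alpha-tubulin that shares 55.3% of its words with other genes, of −0.69 (SE 0.18), and *Ak6*, a nucleotide kinase, of −1.71 (SE 0.42). Summed with *Taf9*, with which it shares exons, *Ak6* had −0.32. *Mmp14*, a membrane-bound matrix metalloproteinase, fell in every mouse, with an interaction of −1.13 (SE 0.54, unadjusted p = 0.0434, edgeR's quasi-likelihood test). Its libraries with Ac-LDL held 3 to 14 counts each. The interaction was −0.78 without wild type replicate 2 (unadjusted p = 0.265) and −0.91 without knockout replicate 3 (unadjusted p = 0.139). With DESeq2 the unadjusted p was 0.155. *Lyz2*, whose promoter drives the Cre, was at 20339 to 30462 CPM in wild type and at 10096 to 15337 CPM in knockout libraries, and its interaction was −0.33 (SE 0.15, unadjusted p = 0.0309), or −0.20 without wild type replicate 1 (unadjusted p = 0.176).

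Of the genes called, 3 have near-identical copies. *Gstp1* and *Gstp2* encode glutathione S-transferases of the pi class and lie next to each other on chromosome 19 (4035407 to 4037985 and 4040285 to 4046023, minus strand). Their coding sequences of 633 bases differ at 12 positions (98.1% identity). The first 150 coding bases are shown because they hold 6 of these differences, in capitals (transcripts of the GENCODE annotation of GRCm38). Of the 31-base words of *Gstp1*, 38.5% occur in *Gstp2*.
Gstp1: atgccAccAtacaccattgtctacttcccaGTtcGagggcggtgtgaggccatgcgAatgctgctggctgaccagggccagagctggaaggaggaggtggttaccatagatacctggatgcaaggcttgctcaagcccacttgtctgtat
Gstp2: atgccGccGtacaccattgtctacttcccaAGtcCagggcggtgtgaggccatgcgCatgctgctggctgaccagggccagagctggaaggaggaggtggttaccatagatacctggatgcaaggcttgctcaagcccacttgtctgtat
*Gstp1* had 7, 16 and 11 counts in wild type control cells and 14, 12 and 19 with Ac-LDL, and 0, 0 and 0 in knockout control cells and 13, 10 and 13 with Ac-LDL. *Gstp2* had 0 counts in all 6 wild type libraries, 17, 12 and 13 in knockout control cells and 0, 0 and 0 with Ac-LDL. In knockout cells the counts thus stood at one gene in control and at the other with Ac-LDL. The interaction of *Gstp1* was at least 3.05-fold higher (adjusted p = 0.0436, edgeR's quasi-likelihood test), while that of the sum of both genes was −0.60 on the log2 scale (SE 0.54, adjusted p = 1.0). *Gstp1* was not called without wild type replicate 2 or without any of the knockout replicates.

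*Gm32687* (chromosome 10, 81863934 to 81881081) shares 96.0% of its 31-base words with *Zfp433* (chromosome 10, 81704825 to 81726686), a zinc finger gene. *Gm32687* was at 6.50, 10.5 and 9.48 CPM in wild type control cells and 2.85, 5.91 and 4.08 CPM with Ac-LDL, and at 0, 0 and 0 CPM and 7.09, 16.1 and 9.28 CPM in knockout cells, at least 11.9-fold higher in the interaction (adjusted p = 0.0291, edgeR's quasi-likelihood test). *Zfp433* had a change of the opposite sign in every mouse, and the sum of both had an interaction of −0.29 (SE 0.41). *Hist1h2ah* (chromosome 13, 22035164 to 22035568), a histone H2A gene, shares 91.2% of its words with other genes. It had 0 counts in every knockout library with Ac-LDL and was at 7.59, 34.0 and 34.0 CPM in the wild type ones. The control libraries held 0, 26.7 and 10.3 counts in wild type and 3.78, 37.7 and 0 in knockout cells. Knockout replicate 3 was thus at 0 in both cultures, and the fall in knockout cells lay mostly in replicate 2. *Hist1h2ah* was at least 13-fold lower in the interaction (adjusted p = 0.0291, edgeR's quasi-likelihood test). As for *Gstp1* and *Gm32687*, this bound sets the group at 0 to 3 counts per library and takes the other groups at their means. It covers the counting error of the group at 0 only, not that of the other groups or the spread between mice. Summed with its copies, 12 genes in all, it had an interaction of −0.04 (SE 0.18). Neither *Gm32687* nor *Hist1h2ah* was called without knockout replicate 2. With the copies of all named genes summed, an alternative chosen after seeing the data, 0 genes passed the threshold in edgeR's quasi-likelihood test, *Ngp* included, and 463 had an unadjusted p under 0.05.

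**Figure D5:**
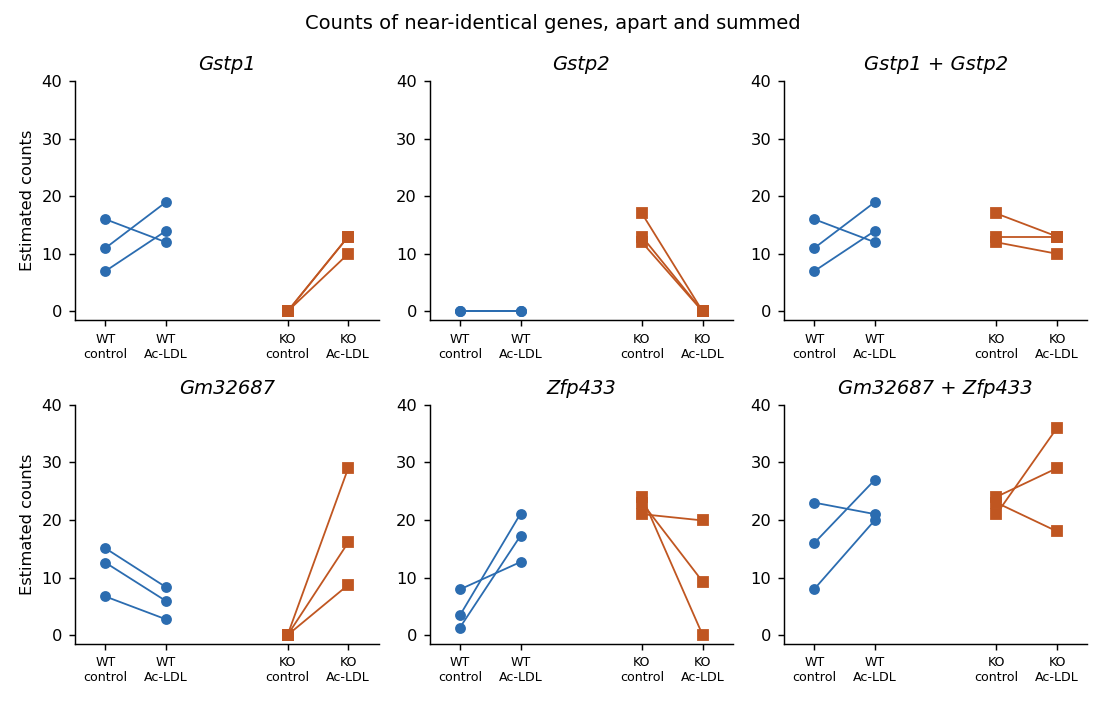
Estimated counts (linear axis from 0) of *Gstp1*, *Gstp2* and their sum, and of *Gm32687*, *Zfp433* and their sum, in each wild type (circles) and knockout (squares) mouse, with lines from control to Ac-LDL. The knockout control libraries hold 0 counts of *Gstp1* and 12 to 17 of *Gstp2*, and the sums of both genes lie between 7 and 19 in all 12 libraries.

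Among the other lists, no list had more than 3 members past an unadjusted p of 0.05, which 1.98% of all genes passed upward and 1.88% downward. Of 63 clustered histone genes tested, 1 passed upward (*Hist1h3i*, 0.78) and 2 downward (*Hist1h2ah* and *Hist2h2aa2*, −0.47, or −0.29 without knockout replicate 2). Summed with their copies these had 0.05 and −0.03 for *Hist1h3i* and *Hist2h2aa2*. Genes of mitosis (median −0.06, 0 of 22 passed; *Kif20a* 0.48) and DNA replication (median −0.12, 0 of 20; *Tyms* −0.48) did not differ detectably. Of 27 lysosomal genes, 1 passed (*Asah1*, the acid ceramidase, −0.26, or −0.16 without wild type replicate 1), and of 14 matrix metalloproteinase and remodelling genes 1 (*Mmp14*), with medians of −0.07 and −0.33, the latter −0.13 without wild type replicate 2. Of 19 tested amino acid transporter and glutamine genes, *Slc7a7* alone passed. *Slc3a2*, which encodes the heavy chain partner of SLC7A7, had an interaction of 0.12 (SE 0.13), and *Slc7a6*, its paralogue, −0.22 (SE 0.41). Targets of ATF4 (0 of 16; *Phgdh* −0.92, SE 0.51) and NRF2 (0 of 17; *Nqo1* −0.68, SE 0.37), chemokines (0 of 11; *Ccl3* −0.75, SE 0.43), inflammatory cytokines (0 of 11; *Il10* 2.36, SE 1.38), scavenger receptors (0 of 11), markers of resident macrophages (0 of 9; *Cbr2* −1.64, SE 1.15), cytosolic ribosomal proteins (0 of 79; *Rpl35* −0.28) and mitochondrially encoded genes (0 of 13; *mt-Cytb* 0.16) held no member that passed. Of the 11 macrophage identity markers, 2 passed downward, *Lyz2* among them, against 1.88% of all genes, with a list median of −0.03. For 2 of the 11 the knockout changes lay entirely above the wild type ones, against 5.04% of all genes. Of markers of other cell types, 5 of 9 stromal, 6 of 11 dendritic, 1 of 10 lymphoid and 0 of 8 erythroid genes passed the count filter, and 0 of them passed an unadjusted p of 0.05, nor did any of the 5 tested sex-linked genes.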

How the data were processed

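Total RNA of BM-derived macrophages was sequenced from a stranded total RNA kit. The deposited estimated counts per gene were made by the authors with STAR and Salmon on mm10 (versions not given in the sources used here), and were rounded to whole numbers. Genes with at least 2 counts in a group's number of libraries and 10 in total (edgeR 4.0.16 filterByExpr, R 4.3.3) were kept. Libraries were scaled by TMM (factors 0.956 to 1.03), and edgeR's quasi-likelihood test was fitted on all 18 libraries with a block per mouse, taken from the animal named in the labels (8 residual degrees of freedom). Libraries of a mouse deviated together with correlations of 0.087 to 0.261. P-values were Benjamini-Hochberg adjusted over 12290 genes at 0.05. CPM changes used log2 with a prior count of 2, and summed marker levels a pseudocount of 0.5. No libraries of a group agreed within sampling noise (chi-square per degree of freedom 2.03 to 12.7). Nothing beyond the animal says that cultures were separate, and p-values measure the spread between these samples.

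Named were all genes called, the 8 with the smallest p per direction among those with at least 5 CPM and no overlap, *Slc7a7*, *Lyz2*, *Gstp1* and *Gstp2*, up to 3 genes per list at an unadjusted p under 0.05 or else the smallest p, and the 5 strongest average responders per direction. Other list members named as examples were chosen after their values were seen. Members and lists were chosen with earlier results of these data known. DESeq2 1.42.0 and limma 3.58.1 served as alternatives, beside other filters, scaling, samples and left-out mice. Scripts were tested on simulated data. Some genes are not reported here, though they count in the lists and totals.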

Additional observations from a re-analysis of the deposited data

Results flagged for a closer look

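The interaction test itself passed the adjusted threshold of edgeR's quasi-likelihood test for the following genes. *Ngp* had a difference of −2.23 on the log2 scale. *Gm32687* was at least 11.9-fold higher, *Gstp1* at least 3.05-fold higher and *Hist1h2ah* at least 13-fold lower in the knockout response, with 0 counts in a whole group of libraries each. These bounds cover the counting error of the group at 0 only, with the other groups at their means, and these genes have near-identical copies. With the copies summed, the interactions were −0.29 for *Gm32687*, −0.59 for *Gstp1* and −0.04 for *Hist1h2ah*, and did not pass the threshold.

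For 5 of the other named genes, out of 48 named, the change in every knockout mouse had the opposite sign to that in every wild type mouse, while the interaction test of the difference did not pass the adjusted threshold. Wild type changes were below 0 and knockout changes above 0 for *Sec24a* (difference 0.80). Wild type changes were above 0 and knockout changes below 0 for *Acads* (−1.15), *S100a9* (−1.43), *Tuba1c* (−0.69) and *Zfp433* (−3.57). These genes were named for a small p and no overlap of the same changes, so their separation follows from the choice. How many of all genes show opposite signs was not counted. Some of these changes were small, and *Zfp433* is the near-identical copy of *Gm32687*.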

How the results depend on the processing

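Without the mouse as a replicate block, which ignores the pairing, 0 interactions were called (327 at an unadjusted p under 0.05), against 5 with it, 1 with DESeq2, 1 with limma on the per-mouse changes, 0 with the stricter count filter (397 at an unadjusted p under 0.05), 24 without a filter and 10 from the control and Ac-LDL libraries alone. With near-identical copies summed, chosen after seeing the data, it was 0 (463). Without the block, the average response was called for 246 genes, the wild type response for 58 and the knockout response for 64, and with DESeq2 for 361, 132 and 129. Leaving out a mouse gave 2 (without knockout replicate 2) to 8 (without wild type replicate 1) interactions, 444 to 834 genes in the average response, 105 to 332 in wild type and 107 to 424 in knockout cells, lowest without wild type replicate 3 or knockout replicate 3. It moved the median of the sterol enzymes between 0.31 and 0.74 and that of the neutrophil genes between −1.72 and −1.04, the latter being −0.84 with limma.

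Of 630 values of named genes under alternatives, 623 kept their direction and 7 did not. These were *Kif20a* without wild type replicate 1 (−0.040, in a range up to 0.80 over the left-out mice), *Hpgd* without wild type replicate 2 (−0.12) and knockout replicate 1 (−0.21, range up to 0.28), *Hmgcs1* without knockout replicate 2 (−0.10, range up to 0.24), *Gstp1* summed with *Gstp2* (−0.60) and with all copies summed (−0.59), and *Gm32687* with copies summed (−0.29). The cause was not tested, apart from the sums, which by construction remove a shift of counts between copies. Of 298 medians of the other lists under alternatives, 22 moved by more than the spread between mice. A count of 0 allowed a level of up to 1.67 to 2.85 CPM.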
